A study of Mus musculus with 10 samples.

Results

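Antibody genes and genes of the antibody-secreting plasma cell were examined in RNA from the mammary glands of C57BL/6 mice that had eaten different amounts of folic acid (FA). The set holds 10 genes listed by name, *Ighm*, *Igha*, *Igkc*, *Ighg1*, *Ighg2b*, *Ighg2c*, *Jchain*, *Mzb1*, *Derl3* and *Pigr*, whose symbols were matched to Ensembl identifiers among the 46983 genes of the count files. Of these 10 genes, 7 passed the filter on low counts that left 15610 genes for testing, and *Ighg1*, *Ighg2c* and *Mzb1* did not. The control (CFA) group is 5 libraries from mice given 1 mg FA/kg diet and the high FA (HFA) group is 5 libraries from mice given 5 mg FA/kg diet. Per the study's methods the mice were virgin females, ate the test diet for 4 weeks and then shared a maintenance diet for 4 weeks. The right thoracic fat pads were taken whole at postnatal day 130, so that ducts, fat, vessels and any attached tissue are in 1 RNA sample. Values are given library by library under the sample titles, where titles beginning T1 are CFA and titles beginning T2 are HFA. The libraries were described separately by whether *Ighd*, the heavy chain gene of IgD, lay above or below 50 CPM, the unit of counts scaled to a common library size.

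An antibody is built of heavy and light chains, and the constant region gene joined to the heavy chain (*Ighm* for IgM, *Ighd* for IgD, *Ighg1*, *Ighg2b* and *Ighg2c* for IgG, *Igha* for IgA) sets its class. Resting naive B cells carry IgM and IgD on their surface, whereas plasma cells secrete antibody of 1 class and have little IgD. IgA plasma cells populate mucosal tissues and collect in the mammary gland mainly during lactation, where the J chain (*Jchain*) links IgA or IgM into polymers and the polymeric immunoglobulin receptor (*Pigr*) carries these across the epithelium into milk. *Igkc* encodes the constant region of the kappa light chain, *Mzb1* an endoplasmic reticulum chaperone of B and plasma cells that aids antibody assembly, and *Derl3* a protein that moves misfolded proteins out of the endoplasmic reticulum.

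The heavy chain genes lie side by side on the minus strand of chromosome 12 of GRCm38, from *Igha* (113254830 to 113260236) to *Ighm* (113418558 to 113422730). Each makes a secreted and a membrane form through alternative 3′ ends of its transcript. In the secreted IgM and IgA heavy chains, the J chain is bound at this end. The last 60 coding bases and the stop codon of the secreted form, from GENCODE M21, are therefore printed here. They read 5′ to 3′ along the gene, with the coding bases that are not in the membrane form in capitals. The windows are chr12:113420867-113420929 for *Ighm*, chr12:113258768-113258830 for *Igha*, chr12:113328976-113329038 for *Ighg1*, chr12:113306389-113306451 for *Ighg2b* and chr12:113287389-113287451 for *Ighg2c*.
Ighm: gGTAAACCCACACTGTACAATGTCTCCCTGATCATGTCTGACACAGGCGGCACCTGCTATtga
Igha: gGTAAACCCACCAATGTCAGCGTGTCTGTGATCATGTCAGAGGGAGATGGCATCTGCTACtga
Ighg1: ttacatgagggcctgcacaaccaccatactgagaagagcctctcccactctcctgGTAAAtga
Ighg2b: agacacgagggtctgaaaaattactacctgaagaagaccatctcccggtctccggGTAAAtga
Ighg2c: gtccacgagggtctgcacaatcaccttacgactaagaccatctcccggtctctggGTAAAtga
*Ighm* and *Igha* each have 59 secreted-only coding bases, whose second-last codon, TGC, encodes the cysteine through which the J chain is bound. The 3 *Ighg* genes have 5 secreted-only coding bases and a GGT codon, which is not cysteine, in that place. The counts were made per gene, so the secreted and membrane forms of a gene cannot be told apart in the values that follow.

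*Ighd* was at 0.914 to 1.64 CPM in 7 libraries (10 to 23 counts each), which were the CFA libraries T1224, T1314 and T1324 and the HFA libraries T2214, T2224, T2234 and T2314. It was at 105 CPM in T1234 and 290.0 CPM in T1334, both CFA, and at 895 CPM in the HFA library T2334. The division into 7 and 3 libraries was the same at limits of 20 or 100 CPM and without TMM scaling. All 12 of 12 B cell markers and all 12 of 12 T cell markers listed for checking were higher in each of the 3 libraries above the limit than in each of the 7 below it. This pattern was found in 1622 of the 15610 genes tested (10.4%). The 12 B cell markers summed to 7.30 to 13.6 CPM below the limit and to 457 to 3514 CPM above it, and the 12 T cell markers to 10.9 to 27.9 CPM and 281 to 1599 CPM. Of 7 genes listed as markers of lymph node stroma, 2 were higher in all 3 libraries above the limit than in all 7 below it. The 2 were *Cxcl13*, a chemokine that draws B cells, and *Chst4*. *Cxcl13* was at 0 to 10.4 CPM below the limit and 27.1 to 241 CPM above it, and *Chst4* at 0 to 0.0687 CPM and 2.41 to 5.54 CPM. *Fcgbp*, a mucus protein that had the highest mean of the 7, was at 332 to 1296 CPM and 82.8 to 740 CPM. It would outweigh the others in a sum, so no sum of the 7 is given. *Pdpn* and *Lyve1* overlapped between the classes, and *Ccl19* was at 0 to 1.02 CPM in all libraries. *Ccl21a*, which has near-identical copies in the genome, had no counts. In whole tissue, fewer cells of a type and less RNA per cell cannot be told apart. Because the libraries were divided by an antibody gene, differences between the 2 classes are given as a description without a test.

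Among the tissue markers, 8 fat cell genes summed to 9333 to 16317 CPM, 14 luminal epithelial genes to 357 to 2379 CPM and 6 basal epithelial genes to 160 to 1709 CPM. Of the milk protein genes, *Wap* and *Lalba* were at 0 to 0.183 CPM, *Csn2* at 0 to 8.52 CPM and *Csn3* at 9.10 to 67.6 CPM. The 5 skeletal muscle genes listed, *Acta1*, *Ckm*, *Myh4*, *Mylpf* and *Tnnt3*, summed to 635 CPM in T2334 and to 6117 to 49639 CPM in the other libraries. The libraries held 7672199 to 14829291 reads counted on genes. Reads with more than 1 alignment were not counted on genes. They were 28.8% to 33.9% of the total of the gene counts and the summary lines that HTSeq adds. The floor of detection, taken as 3 counts, corresponds to 0.191 to 0.426 CPM. This floor and the intervals given with shares cover counting error only.

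*Ighm* and *Igkc* were the most abundant of the 10 genes and varied with *Ighd*. *Ighm* was at 34.3 CPM in T1224, 95.04 CPM in T1314 and 42.7 CPM in T1324 among the CFA libraries below the limit, and at 59.3, 85.2, 41.7 and 34.8 CPM in the HFA libraries T2214, T2224, T2234 and T2314. Above the limit it was at 232 CPM in T1234, 585 CPM in T1334 and 1502 CPM in T2334. The lowest of the 3 lay well above the highest of the 7, and the order of the 3 was that of *Ighd*. *Igkc* was at 8.58, 28.7 and 26.1 CPM in T1224, T1314 and T1324, at 8.64, 17.6, 17.0 and 6.86 CPM in T2214, T2224, T2234 and T2314, and at 111, 288 and 754 CPM in T1234, T1334 and T2334. The mean of the 3 libraries was 13.8 times the mean of the 7 for *Ighm* and 23.7 times for *Igkc*.

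**Figure D1:**
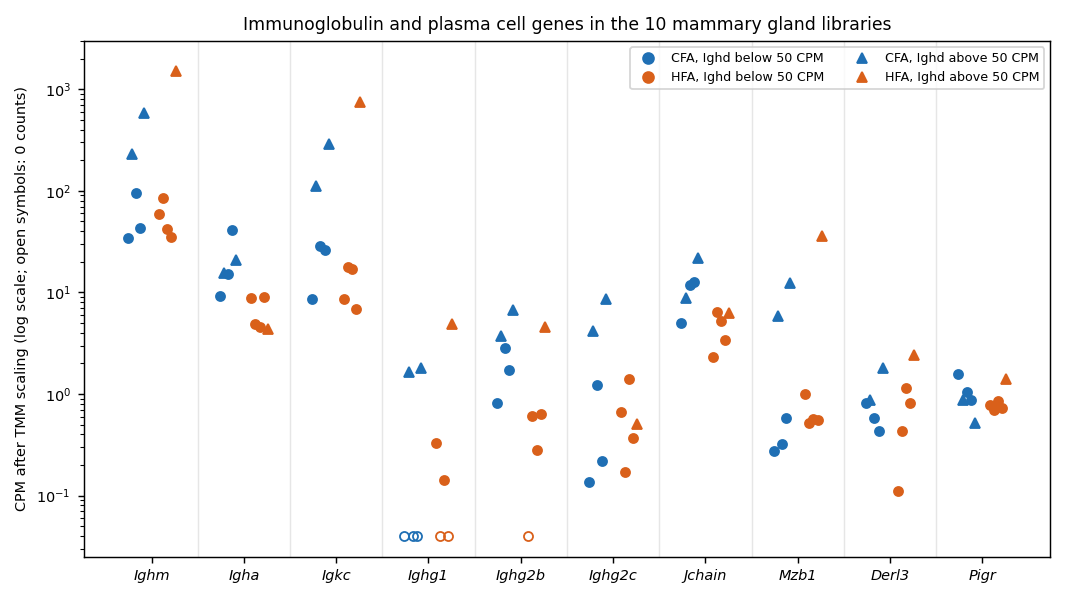
Each point is 1 library: the y axis is CPM after TMM scaling on a log scale, and the x axis has the 10 genes, with CFA in blue and HFA in orange, circles for *Ighd* below 50 CPM and triangles for above, and open symbols on the lowest line for 0 counts. The triangles lie above all circles for *Ighm*, *Igkc*, *Ighg1*, *Ighg2b* and *Mzb1*, while for *Igha* all 5 orange points lie below all 5 blue ones.

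The ratios to *Ighd* differ between the classes because *Ighd* divides them, and are given for their size. The ratio of *Ighm* to *Ighd* counts was 21.7 to 76.9 in the 7 libraries below the limit and 2.21 in T1234, 2.02 in T1334 and 1.68 in T2334. For *Igkc* to *Ighd* the ratios were 5.43 to 23.2 in the 7 libraries and 1.06, 0.994 and 0.843 in the 3. The ratio of *Ighm* to *Igkc* was 1.64 to 6.87 below the limit and 2.09, 2.03 and 1.99 above it, nearly the same value in the 3 libraries although their *Ighm* levels spanned a range of 232 to 1502 CPM. Among constant region counts of the light chains, kappa made up 87.4% to 95.3% in 6 of the 7 libraries and 78.0% to 80.2% in the 3, the remainder being lambda. T2314 had no lambda count beside 75 kappa counts, which allows a lambda share of up to 4%.

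*Igha* and *Jchain* did not follow *Ighd* in this way. *Igha* was at 9.27, 15.1 and 40.8 CPM in the CFA libraries T1224, T1314 and T1324, at 8.86, 4.92, 4.54 and 9.05 CPM in the HFA libraries T2214, T2224, T2234 and T2314, and at 15.5, 21.0 and 4.33 CPM in T1234, T1334 and T2334. Its highest value came from a library with 1.16 CPM of *Ighd*, T1324, and its lowest from the library with the most *Ighd*, T2334. The mean over the 3 libraries above the limit was 1.03 times the mean over the 7 below it. *Jchain* was at 5.01, 11.9 and 12.8 CPM in T1224, T1314 and T1324, at 2.32, 6.47, 5.25 and 3.38 CPM in T2214, T2224, T2234 and T2314, and at 8.88, 21.9 and 6.24 CPM in T1234, T1334 and T2334. The ratio of the class means was 1.83 for *Jchain*, and its values in the 2 classes overlapped. The plots of the level of *Ighm*, *Igkc*, *Igha* and *Jchain* against *Ighd* show the contrast between the 2 pairs of genes.

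**Figure D2:**
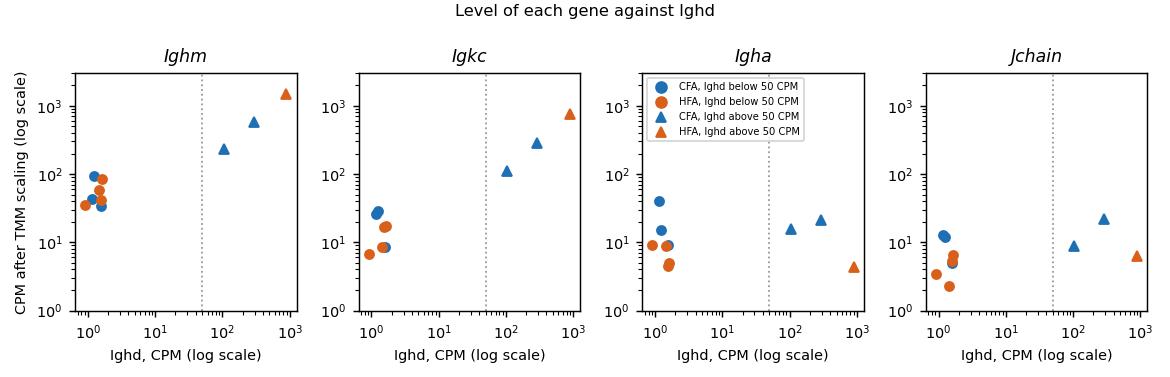
Each panel plots 1 gene (y axis, CPM on a log scale) against *Ighd* (x axis, CPM on a log scale) in the 10 libraries, with CFA in blue, HFA in orange and a dotted line at 50 CPM of *Ighd*. *Ighm* and *Igkc* climb through the 3 libraries right of the line to 1502 and 754 CPM, whereas *Igha* (4.33 to 21.0 CPM there) and *Jchain* (6.24 to 21.9 CPM there) stay within or near the range of the 7 libraries on the left.

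The class make-up of the heavy chain counts differed widely between libraries. *Igha* made up 20.1% of heavy chain constant region counts in T1224 (95% exact binomial interval 17.1% to 23.4%), 13.1% in T1314 (11.5% to 14.7%) and 47.1% in T1324 (44.3% to 49.99%). In the HFA libraries below the limit it was 12.5% in T2214 (10.1% to 15.4%), 5.28% in T2224 (4.03% to 6.79%), 9.09% in T2234 (6.30% to 12.6%) and 19.8% in T2314 (16.4% to 23.5%). These shares overlapped between the diets, since T2314 lay above T1314 and T2214 lay close to it. Above the limit *Igha* was 4.27% in T1234 (3.61% to 5.02%), 2.30% in T1334 (2.04% to 2.58%) and 0.179% in T2334 (0.139% to 0.227%). *Ighd* made up 1.07% to 3.43% of heavy chain counts in the 7 libraries and 28.9% to 37.1% in the 3, and the IgG genes together 0.582% to 4.26% in all 10. *Ighm* was the largest share in every library, at 49.3% to 91.6%.

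**Figure D3:**
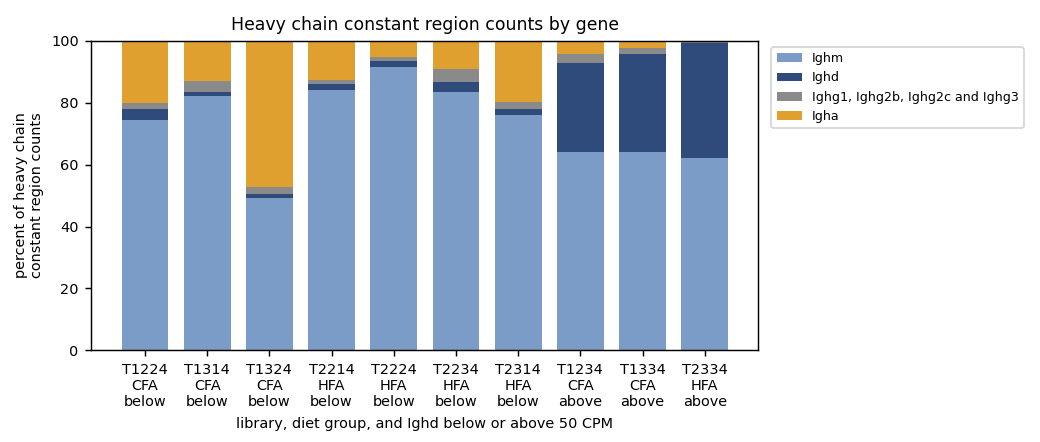
Stacked bars give the percent of heavy chain constant region counts (y axis) from *Ighm*, *Ighd*, the IgG genes and *Igha* in each library, grouped by *Ighd* class and diet on the x axis. *Ighd* takes 28.9% to 37.1% in the 3 libraries above 50 CPM, and *Igha* reaches 47.1% in the CFA library T1324.

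The IgG genes were low throughout. *Ighg1* had 4 counts in all over the 7 libraries below the limit, with 5 of them at 0, and 115 counts over the 3 above it, at 1.65 CPM in T1234, 1.79 CPM in T1334 and 4.84 CPM in T2334. *Ighg2b* was at 0.824, 2.86 and 1.73 CPM in T1224, T1314 and T1324, at 0, 0.604, 0.284 and 0.640 CPM in T2214, T2224, T2234 and T2314, and at 3.73, 6.64 and 4.52 CPM in T1234, T1334 and T2334. In the 7 libraries the HFA values of *Ighg2b* all lay below the CFA values, on 16 counts over the 4 HFA and 80 over the 3 CFA libraries. *Ighg2c* was at 0.137 to 1.42 CPM in the 7 libraries and at 4.17, 8.58 and 0.509 CPM in T1234, T1334 and T2334. The library with the most *Ighd* and *Ighm* had thus less *Ighg2c* than 3 of the 7 libraries below the limit. Of the 75-base windows of the *Ighg2b* and *Ighg2c* transcripts, 0.768% and 0.480% also occur in another *Ighg* gene, so reads of that length seldom fit both.

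*Mzb1* was at 0.275 to 0.996 CPM in the 7 libraries and at 5.92, 12.5 and 36.2 CPM in T1234, T1334 and T2334, in the order of *Ighd*. Its windows are shared to 51.4% with a gene annotated as SPATA24, so its level per length is uncertain. *Derl3* was at 0.111 to 1.14 CPM in the 7 libraries and at 0.878, 1.79 and 2.42 CPM in the 3, with T1234 inside the range of the 7. *Pigr*, the receptor made by the epithelium, was at 1.58, 1.04 and 0.867 CPM in T1224, T1314 and T1324, at 0.775, 0.690, 0.851 and 0.731 CPM in T2214, T2224, T2234 and T2314, and at 0.878, 0.522 and 1.40 CPM in T1234, T1334 and T2334. It rested on 6 to 23 counts per library, and the mean of either class was 0.933 CPM.

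The 5 members *Ighm*, *Igkc*, *Ighg1*, *Ighg2b* and *Mzb1* were higher in all 3 libraries above the limit than in all 7 below it, and *Igha*, *Ighg2c*, *Jchain*, *Derl3* and *Pigr* were not. Of the 15610 genes tested, 1622 (10.4%) had that pattern. Per kilobase of merged exon, the mean level in the 7 libraries was 30.5 CPM for *Igkc*, 29.8 CPM for *Ighm*, 4.96 CPM for *Igha* and 2.67 CPM for *Jchain*, followed by 0.454 CPM for *Ighg2c*, 0.448 CPM for *Mzb1*, 0.371 CPM for *Ighg2b*, 0.311 CPM for *Derl3*, 0.232 CPM for *Pigr* and 0.0261 CPM for *Ighg1*. In that order *Igkc* and *Ighm* differed by less than the SD of either, as did each neighbouring pair from *Ighg2c* to *Derl3*, while *Igha* and *Jchain*, and *Derl3* and *Pigr*, differed by less than the larger SD of the pair and by more than the smaller. In the 3 libraries above the limit the means per kilobase were 723 CPM for *Igkc* and 410 CPM for *Ighm*, then 15.0 CPM for *Mzb1*, 5.10 CPM for *Igha*, 4.90 CPM for *Jchain* and 3.33 CPM for *Ighg2c*. The other 4 genes were at 0.232 to 1.85 CPM per kilobase.

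The comparison of the diets asks whether FA intake left a difference in these genes 4 weeks after the test diets ended. Over all 10 libraries, *Igha* had a mean of 20.3 CPM in CFA (SD 12.2) against 6.34 CPM in HFA (SD 2.40), with 5 libraries per group, a ratio of the means of 3.21, and its 5 HFA values (4.33 to 9.05 CPM) lay below its 5 CFA values (9.27 to 40.8 CPM). *Jchain* was at 12.1 ± 6.25 CPM in CFA and 4.73 ± 1.81 CPM in HFA, but T1224, at 5.01 CPM, lay below 3 HFA libraries. *Igha* was the single member whose diets did not overlap, a pattern with HFA lower that 38 of 15610 genes (0.243%) had. The log2 fold change, HFA against CFA, was −1.68 (SE 0.41) for *Igha* and −1.35 (SE 0.40) for *Jchain*, with adjusted p of 0.582 and 0.648 in the quasi-likelihood test of edgeR, adjusted by Benjamini-Hochberg.

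None of the 7 members tested passed the adjusted threshold of 0.05 over all libraries, nor did any of the 15610 genes (0%), of which 1149 had an unadjusted p below 0.05 by edgeR and 60 passed by DESeq2. *Igha* and *Jchain* were among the 545 genes (3.49%) that were lower in HFA at an unadjusted p below 0.05. For the other members the log2 fold changes over all libraries were 0.80 for *Ighm* (SE 1.20), 0.80 for *Igkc* (SE 1.42), −1.28 for *Ighg2b* (SE 0.90), 0.17 for *Derl3* (SE 0.63) and −0.12 for *Pigr* (SE 0.34). Their adjusted p ran from 0.762 to 0.954 by edgeR, and the values of *Ighm* and *Igkc* rest on T2334, without which they were −1.87 and −2.92, and that of *Ighg2b* was −2.98 without it and −0.80 without T1334. The median log2 fold change of all genes was 0.064. By DESeq2 the adjusted p of *Igha* was 0.0219, and over the 18 alternatives tried for *Igha* it ran from that value to 0.999.

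**Figure D4:**
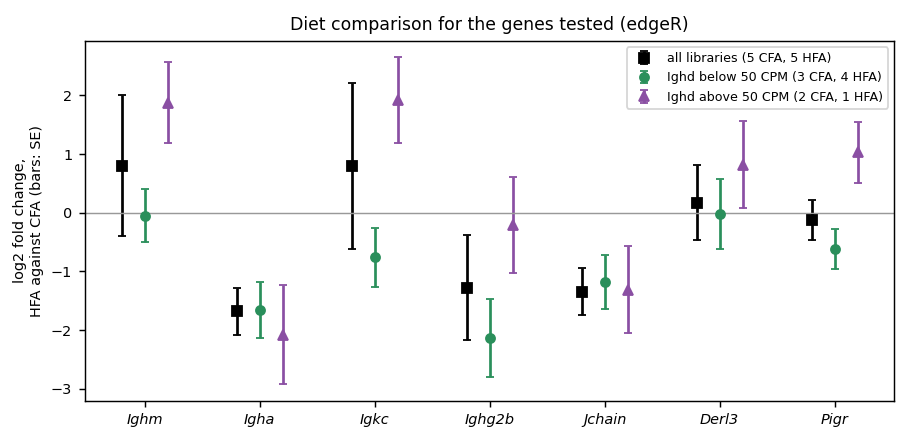
Points are log2 fold changes of HFA against CFA (y axis) for the 7 genes tested (x axis) with bars of 1 SE, over all libraries (black squares), below 50 CPM of *Ighd* (green circles, 3 CFA and 4 HFA) and above it (purple triangles, 2 CFA and 1 HFA). *Igha* (−1.68, −1.66 and −2.08) and *Jchain* (−1.35, −1.18 and −1.31) lie below 0 in each set, while *Ighm* (0.80, −0.05 and 1.88) and *Igkc* (0.80, −0.76 and 1.92) do not keep 1 side.

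Within the 7 libraries below 50 CPM of *Ighd*, *Igha* was at 21.7 ± 16.8 CPM in CFA (n = 3) and 6.84 ± 2.45 CPM in HFA (n = 4), *Ighg2b* at 1.81 ± 1.02 and 0.382 ± 0.301 CPM, and *Jchain* at 9.90 ± 4.26 and 4.36 ± 1.86 CPM. *Ighm* was at 57.3 ± 32.9 CPM in CFA and 55.3 ± 22.5 CPM in HFA, 2 means that differed by less than their SDs. *Igha*, *Ighg2b* and *Pigr* were lower in all 4 HFA than in all 3 CFA libraries, which 1653 of the genes tested (10.6%) also were. In 1 model with a mean for each diet in each *Ighd* class, the log2 fold change below the limit was −1.66 for *Igha* (SE 0.48), −2.13 for *Ighg2b* (SE 0.67) and −1.18 for *Jchain* (SE 0.46), with adjusted p of 0.187, 0.202 and 0.247 by edgeR. *Igkc* (−0.76, SE 0.50), *Pigr* (−0.62, SE 0.34), *Ighm* (−0.05, SE 0.46) and *Derl3* (−0.02, SE 0.59) had adjusted p of 0.357 to 0.989 by edgeR. No member passed by edgeR, against 2 of 15610 genes (0.0128%), and *Igha*, *Ighg2b* and *Jchain* were among the 1413 genes (9.05%) lower in HFA at an unadjusted p below 0.05. DESeq2 gave an adjusted p of 0.0280 for *Igha* and 0.0449 for *Ighg2b* and passed 576 genes. Over the 13 alternatives for this class the adjusted p ran from 0.0280 to 0.553 for *Igha* and from 0.0449 to 0.616 for *Ighg2b*.

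The size of the *Igha* difference depended on T1324. Without that CFA library the log2 fold change of *Igha* below the limit was −0.83, and over all libraries it was −1.26. Marker sums of other tissues also lay apart between the diets. In the 7 libraries the 5 muscle genes summed to 15688 to 30375 CPM in CFA and 37464 to 49639 CPM in HFA, and the 6 basal epithelial genes to 1172 to 1709 CPM in CFA and 468 to 1016 CPM in HFA, both without overlap. The 12 T cell markers summed to 17.6 to 27.9 CPM in CFA and 10.9 to 15.8 CPM in HFA, also without overlap. Of the 11 T cell markers tested, 10 were lower and 1 higher in HFA below the limit, and 0 passed by edgeR. The 14 luminal genes summed to 1433 to 1811 and 1060 to 1731 CPM, which overlapped. So did the 12 B cell markers, at 7.30 to 10.5 and 7.86 to 13.6 CPM. Of the 5 B cell markers tested, 3 were higher and 2 lower in HFA below the limit. Because low *Ighd* set these libraries apart, this overlap cannot show whether B cells differed between the diets. With the mean of the muscle markers as a term, an alternative chosen after the values were seen, the log2 fold change of *Igha* over all libraries was −1.67 (adjusted p = 0.125 by edgeR), and with the mean of the basal epithelial markers it was −1.69 (adjusted p = 0.241 by edgeR). Those terms turned *Ighm* to −1.13 and −1.96 and *Igkc* to −2.07 and −3.06.

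**Figure D5:**
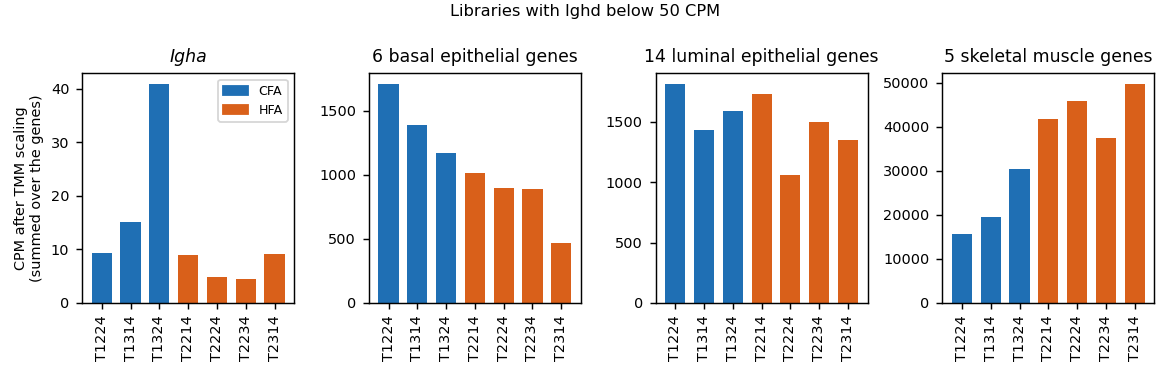
Bars give, for each of the 7 libraries with *Ighd* below 50 CPM (x axis), the CPM of *Igha* and the summed CPM of basal epithelial, luminal epithelial and skeletal muscle markers (y axes from 0), with CFA in blue and HFA in orange. *Igha* and the basal genes are lower and the muscle genes higher in all 4 HFA than in all 3 CFA libraries, and T1324 has the highest *Igha* (40.8 CPM) but not the most of any of the other groups.

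Above 50 CPM of *Ighd* the HFA group is the single library T2334, whose spread is taken from the other groups in the fit. With T1334 left out this class is T1234 against T2334, and with T1234 left out it is T1334 against T2334, 1 library on each side. The same holds for the difference between the classes given below. *Ighm* and *Igkc* were higher in T2334 than in the 2 CFA libraries, with log2 fold changes of 1.88 (SE 0.69) and 1.92 (SE 0.74), and *Igha* was lower, at −2.08 (SE 0.85). The adjusted p were 0.111, 0.121 and 0.140 by edgeR. *Jchain* was at −1.31 (SE 0.75), *Pigr* at 1.03 (SE 0.52), *Derl3* at 0.82 (SE 0.74) and *Ighg2b* at −0.21 (SE 0.83), with adjusted p of 0.217 to 0.894 by edgeR. Without T1334 the value of *Jchain* was −0.51. None of the 7 members passed, against 1259 genes (8.07%), and DESeq2 passed *Igha* with an adjusted p of 0.0478, the lowest over its 12 alternatives, whose highest was 0.237. T2334 also had the least skeletal muscle marker RNA of the 10 libraries and the most B and T cell marker RNA, and by edgeR all 5 muscle genes and the basal genes *Krt5*, *Krt14* and *Trp63* were called lower in it and *Cd79a*, *Cd79b*, *Cxcr5* and 5 T cell markers higher, so diet and the make-up of this 1 sample cannot be told apart.

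The test of whether the diet effect differed between the 2 *Ighd* classes passed for 0 of the 7 members and for 1360 genes (8.71%) by edgeR. It was largest for *Igkc*, at 2.68 on the log2 scale (SE 0.89, adjusted p = 0.0899 by edgeR), which passed by DESeq2 (adjusted p = 0.0339) and by edgeR without T1334 and did not pass in 10 of its 12 alternatives, with adjusted p up to 0.196. For *Igha* the difference was −0.42 (SE 0.93, adjusted p = 0.791 by edgeR) and for *Jchain* −0.13 (SE 0.85, adjusted p = 0.936 by edgeR). The remaining members were at 0.84 to 1.93, with adjusted p of 0.120 to 0.585 by edgeR.

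Other antibody genes showed the pattern of *Ighm* and *Igkc*. Of 5 further constant region genes beside *Ighd*, the 4 genes *Ighg3*, *Iglc1*, *Iglc2* and *Iglc3* were higher in all 3 libraries above the limit than in all 7 below it. Of the genes tested, 10.4% had this pattern. It is given as a description, since *Ighd*, itself a constant region gene, divides the classes. *Iglc2*, a lambda light chain gene, was at 0 to 1.70 CPM below the limit and 14.6 to 101 CPM above it, and *Ighe*, the IgE gene, was at 0 in 9 libraries and 0.0636 CPM in T2334. The variable region genes were numerous but each was low. Of 185 heavy chain V genes 113 had a count, and of 160 kappa V genes 115 did. Summed, the heavy chain V genes were at 2.29 to 11.1 CPM in the 7 libraries and 24.4 to 155 CPM in the 3, and the kappa V genes at 3.50 to 15.9 CPM and 51.7 to 305 CPM. All immunoglobulin genes together took 0.00485% to 0.0184% of the counted reads in the 7 libraries, and 0.0704%, 0.145% and 0.428% in T1234, T1334 and T2334. Of the further constant region genes and *Ighd*, 3 genes were tested, and by edgeR 0 passed over all libraries or below the limit. Above the limit, where HFA is the single library T2334, the log2 fold changes were 2.18 for *Ighd*, 1.57 for *Iglc1* and 2.06 for *Iglc2*. The gene that sets the classes was thus itself higher in T2334 than in the CFA libraries of its class.

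The plasma cell programme and the secretory pathway were covered by 29 genes. Of these 27 were tested, and 0 passed by edgeR over all libraries (16 higher and 11 lower in HFA, median log2 fold change 0.072) or below the limit (8 higher and 19 lower, median −0.060). The medians of all genes were 0.064 and 0.010. At an unadjusted p below 0.05 by edgeR, 2 were higher and 1 lower in HFA below the limit, beside 1346 and 1413 of all 15610 genes. *Irf4* was at 16.8 to 42.4 CPM in CFA and 42.2 to 81.9 CPM in HFA (log2 fold change 1.14). *Herpud1* was at 57.0 to 86.0 and 95.1 to 112 CPM (0.62), and *Hsp90b1* at 253 to 331 and 187 to 257 CPM (−0.38). Their adjusted p were 0.219, 0.199 and 0.262 by edgeR. The most abundant were the endoplasmic reticulum chaperones *Hspa5*, at 281 to 453 CPM, and *Hsp90b1*, at 187 to 331 CPM, and *Derl1*, at 153 to 249 CPM, which many secreting cells use. *Xbp1*, a transcription factor that plasma cells need and that epithelium and fat also express, was at 127 to 247 CPM, and *Prdm1*, the regulator that sets the plasma cell state, at 1.10 to 6.87 CPM. *Tnfrsf17*, the receptor BCMA that marks plasma cells most closely among the 29, was at 0.206 to 0.710 CPM in the 7 libraries and 0.373 to 0.658 CPM in the 3, near the floor. Of the 29 genes, 8 were higher in all 3 libraries above the limit than in all 7 below it, a pattern that 10.4% of the genes tested had. Among them were *Pou2af1*, a transcriptional coactivator of B cells that was not tested for diet, at 21.7 to 174 CPM against 0.274 to 0.910 CPM, *Tnfrsf13b*, a receptor of B and plasma cells, at 14.04 to 98.8 CPM against 0.914 to 3.28 CPM, and *Ly6c2*, at 9.32 to 42.1 CPM against 0.823 to 1.70 CPM. In the comparison of the single library T2334 with T1234 and T1334, 2 of the 27 passed, beside 8.07% of all genes, namely *Sec11c*, a subunit of the signal peptidase (1.11 on the log2 scale, adjusted p = 0.0336 by edgeR), and *Cd38* (1.72, adjusted p = 0.0447 by edgeR).

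Signals that draw plasma cells to tissues and keep them alive were measured by 13 genes, of which 11 were tested and 0 passed by edgeR over all libraries (7 higher, 4 lower, median log2 fold change 0.064) or below the limit (6 higher, 5 lower, median 0.032). *Ccl28*, the chemokine that brings IgA plasma cells to the lactating gland, was at 0.585 to 1.98 CPM, and its receptor *Ccr10* at 0.568 to 1.94 CPM. *Cxcl12*, which retains plasma cells in marrow, was the most abundant, at 170 to 305 CPM, followed by *Vcam1*, at 19.3 to 160 CPM. *Tnfsf13*, the plasma cell survival factor APRIL, was at 1.45 to 1.99 CPM in CFA and 0.710 to 1.12 CPM in HFA libraries below the limit (log2 fold change −0.92, adjusted p = 0.209 by edgeR). There *Cxcr4* was at 15.3 to 21.4 and 5.54 to 13.1 CPM (−1.11, adjusted p = 0.166 by edgeR). *Vcam1* was at 32.9 to 57.2 and 19.3 to 35.3 CPM (−0.87, adjusted p = 0.177 by edgeR). These 3 genes were lower in HFA at an unadjusted p below 0.05 by edgeR and 0 of the 11 were higher, beside 9.05% of all genes lower. *Il6* was at 0.0650 to 0.217 CPM. The difference of the diet effect between classes was 3.08 on the log2 scale for *Cxcr4* and 2.06 for *Vcam1*. Over the 11 genes tested its median was 0.684, with 8 above 0 and 3 below. The HFA side above the limit is the single library T2334, at 127 CPM of *Cxcr4* and 160 CPM of *Vcam1*. Diet and the make-up of that 1 sample cannot be told apart.

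Antibody transport was represented beside *Pigr* by *Fcgrt*, the neonatal Fc receptor that carries IgG, at 143 to 285 CPM, and *Fcamr*, a receptor for IgA and IgM, at 0 to 0.343 CPM in the 7 libraries and 1.86 to 6.81 CPM in the 3. *Ltf*, the secreted antimicrobial protein lactoferrin, was at 12.9 to 248 CPM with the extremes both in HFA libraries below the limit. *Bcl6*, which germinal centre B cells need and other cells express, was at 27.5 to 73.1 CPM. Of the 4 transport and the 6 germinal centre genes listed, 3 of each were tested, and 0 passed in any of the diet comparisons by edgeR. *Fcgbp*, a mucus protein that binds the Fc part of IgG, was at 1035 to 1296 CPM in CFA and 332 to 476 CPM in HFA libraries below the limit (log2 fold change −1.47, adjusted p = 0.0656 by edgeR). Above the limit the log2 fold change was −3.07, from the single HFA library T2334 (82.8 CPM) against T1234 (740 CPM) and T1334 (648 CPM). Diet and the make-up of T2334 cannot be told apart there.

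The genes most alike to *Igha*, *Jchain* and *Pigr* were sought by the Pearson correlation of log2 CPM over the 10 libraries after the mean of each *Ighd* class was subtracted, as a description. The points share diet groups and tissue make-up, and T1324 weighs on those of *Igha*. For *Igha* these were *Fam83a* (r = 0.96, 8.195 to 21.2 CPM), *Gm7701* (0.92), *Slc18b1* (0.91), *Mettl24* (0.89) and *Tmem179* (0.88), and T1324 had the highest level of all of these but *Mettl24*. For *Jchain* they were *Camkk2* (0.87), *Dkk2* (0.85), *Fam98b* (0.83), *Heatr5a* (0.83) and *Gm16263* (0.83). For *Pigr* they were *Rpl36a-ps2* (0.99), *Gm15500* (0.98), *Rps3* (0.97), *Gm9794* (0.97) and *2410002F23Rik* (0.97), a group led by ribosomal protein sequences at levels far above that of *Pigr*. Between members, the same measure was 0.81 for *Ighg2b* and *Jchain*, 0.80 for *Ighm* and *Igkc*, 0.65 for *Igha* and *Jchain*, and −0.37 for *Igha* and *Ighm*. The ratio of *Jchain* to *Igha* counts was 0.263 to 1.32 below the limit and 0.574, 1.04 and 1.44 in T1234, T1334 and T2334.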

How the data were processed

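RNA of mammary fat pads was sequenced by the authors as 75-base read pairs (TruSeq RNA v2) and aligned to GRCm38 (mm10 in the labels) with TopHat2 2.0.14 and Bowtie2 2.2.5. The deposited values are whole-number counts per Ensembl gene made by the authors with HTSeq 0.6.1, 1 file per library, without normalization. The 5 summary lines that HTSeq adds were left out of library sizes. Strand settings are not given in the sources used here, so antisense reads cannot be told apart. Per the study, 1 sample with poor reverse reads and 1 with an outlying MAD score had been dropped. Each library is taken as 1 mouse, so p-values measure the spread between these libraries.

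Symbols, positions and sequences came from GENCODE M21 (GRCm38), with a symbol for 46488 of 46983 genes. HFA was compared with CFA in R 4.3.3 with edgeR 4.0.16 (filterByExpr, TMM, quasi-likelihood test, Benjamini-Hochberg over 15610 genes, threshold 0.05), with diet alone and with 4 means of diet and *Ighd* class. The study's cage term is not in the labels and was left out. SEs are the log2 fold change over the root of F. CPM values are after TMM scaling. The highest correlation between 2 libraries was 0.982, and no library was a copy. The scripts were tested on simulated data.

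The members and gene lists were chosen with earlier results of these data known. All members are named. Of the antibody, plasma cell, homing and transport lists, genes past the threshold, defining genes near 0 and mostly the 3 most abundant are named. *Fcgbp*, *Tnfsf13*, *Tnfrsf13b*, *Pou2af1*, *Ly6c2*, *Irf4* and *Herpud1* were singled out after their values were seen. Alternatives were RLE scaling, no filter, DESeq2 1.42.0, the *Ighd* class, the second title digit, a block by the last title digits, and each library left out. Marker terms were added after the data were seen.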

Additional observations from a re-analysis of the deposited data

Results flagged for a closer look

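Within the HFA group, T2334 lay apart from the other 4 libraries by Dixon's criterion in 6 genes. It was at 1502 CPM of *Ighm*, 754.3 CPM of *Igkc*, 4.837 CPM of *Ighg1*, 4.519 CPM of *Ighg2b*, 36.22 CPM of *Mzb1* and 1.4 CPM of *Pigr*, against next highest HFA values of 85.2, 17.6, 0.332, 0.640, 0.996 and 0.851 CPM. It is the HFA library with *Ighd* above 50 CPM, so the division by *Ighd* already sets it apart. The value of *Pigr* rests on 22 counts. Among the 4 HFA libraries below that limit, T2214 stood apart with 0.9964 CPM of *Mzb1*, on 9 counts, against a next value of 0.568 CPM. Chance flags about 1 in 20 groups of this kind. The flags of T2334 cannot be weighed against that rate, since the genes share its *Ighd* class and are not independent.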

How the results depend on the processing

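*Igha* and *Jchain* stayed lower in HFA over all libraries and in both *Ighd* classes under every alternative run, and passed by edgeR under none. Genes past the threshold by DESeq2 were 60 over all libraries, 576 below 50 CPM of *Ighd*, 2962 above it and 2666 for the difference, against 0, 2, 1259 and 1360 by edgeR. Without a filter on low counts 175 passed below the limit. With 1 library left out the counts ran from 0 to 6 over all libraries (6 without T2334), from 0 (without T1314) to 469 (without T1334; 464 without T1234 and 21 without T1324) below the limit, from 53 (without T2214) to 2207 (without T1334) above it, and from 10 (without T1224) to 1653 (without T1334) for the difference, which cannot be fitted without T2334. Above the limit 70 passed without T1224, 83 without T1314, 111 without T2234, 366 without T1324 and 762 without T2224; for the difference 14 passed without T1314, 25 without T2214 and 710 without T2234. Over all libraries, *Igkc* turned to −0.12 when the second title digit was a term. With the muscle term *Ighm* turned to −1.13, *Igkc* to −2.07 and *Derl3* to −0.15, and with the basal term to −1.96, −3.06 and −0.92; both terms were chosen after seeing the data. The last 3 title digits occur in both diets for 4 pairs, whose deviations correlated at 0.29, −0.29, 0.11 and 0.40, so they do not pair the samples; with them as a block *Ighm* turned to −0.28 and *Igkc* to −0.56, *Igha* was −1.42, and 0 genes passed. With 1 library left out, the log2 fold change over all libraries ran from −1.87 to 1.78 for *Ighm*, −2.92 to 1.90 for *Igkc*, −2.98 to −0.80 for *Ighg2b* (−3.43 with the basal term), −0.60 to 0.59 for *Derl3* and −0.42 to 0.072 for *Pigr*; below the limit from −0.35 to 0.49 for *Ighm* and −0.39 to 0.32 for *Derl3*; and above it from −0.63 to 0.28 for *Ighg2b* and −1.88 to −0.51 for *Jchain*, 1.29 to 2.70 for *Ighm*, 1.32 to 2.77 for *Igkc* and 0.36 to 1.45 for *Derl3* (without T1234 and without T1334 the extremes of each). The cause of these changes was not tested. Without T1334 the class above the limit is T1234 against T2334, and without T1234 it is T1334 against T2334, 1 library on each side. DESeq2 gave no adjusted p for *Igkc* over all libraries. *Ighg1*, *Ighg2c* and *Mzb1* did not pass the filter on low counts, so no test of diet is given for them.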
